A study of Mus musculus with 6 samples.

Results

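The 8 genes Gbp2, Gbp3, Gbp7, Gbp9, Irgm1, Irgm2, Igtp and Ifi47 encode interferon-inducible GTPases and were taken by symbol from the 14912 genes of the expression table, in which all 8 were found. They were followed in 3 bone marrow cultures given recombinant human midkine, a secreted cytokine that binds heparin, and in 3 control cultures without it. All 6 cultures came from WT mice of the C57BL/6J strain and were grown with 50 ng/ml of FLT3LG, the cytokine on which dendritic cell precursors depend. FLT3LG was renewed on day 7, and midkine was present at 10 ng/ml for the last 2 days. The labels name the cells bone marrow derived dendritic cells and the titles carry the prefix tol_DC; they do not say whether replicates were separate mice, so every p-value reflects only how far these libraries scatter, possibly for technical reasons.

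The interferon-inducible GTPases named above belong to 2 families that guard the inside of the cell. The guanylate-binding proteins (Gbp genes) are large GTPases that assemble on the membranes of vacuoles holding bacteria or parasites and on bacteria in the cytosol. The immunity-related GTPases include the regulators Irgm1, Irgm2 and Igtp, which sit on the cell's own membranes and in mice keep the effector members inactive there, and effectors such as Ifi47 and Iigp1. Interferon-gamma switches these genes on through factors that bind the gamma-activated site (GAS). Type I interferon does so through a complex that includes STAT2 and IRF9 and binds the interferon-stimulated response element (ISRE), and IRF1 binds similar letters. Macrophages and dendritic cells are among the cells in which this induction is best known.

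The 8 genes lie in 4 places of the GRCm38 genome. On chromosome 3, Gbp7 (142530342 to 142550149), Gbp3 (142560026 to 142573209) and Gbp2 (142620602 to 142638008) follow one another on the plus strand. Gbp9 is on the minus strand of chromosome 5 (105077630 to 105139539). On chromosome 11, Irgm1 (48861968 to 48871683, minus strand) and Ifi47 (49076587 to 49096974, plus strand) bound a stretch that also holds the GTPase genes 9930111J21Rik1, 9930111J21Rik2 and Tgtp2. Igtp (58199556 to 58207591) and Irgm2 (58199618 to 58222782), both on the plus strand, overlap farther along that chromosome. In the GENCODE annotation Igtp and Irgm2 share 162 exonic bases, Gbp9 shares 60 with Gbp8 and 60 with Gbp4, and Ifi47 shares 111 with Olfr56, all on the same strand. None of these shared bases is among the last 500 exonic bases of a gene, the end from which a 3' kit reads. Reads from such stretches, or from near-identical family members, could have been split or lost by the counting.

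Sequence before the transcript start is shown because it carries what most of the 8 genes have in common. RefSeq windows of 250 bases before to 50 bases after the start (GRCm38.p6) were found for 7 of the 8 genes, and a match to the ISRE, searched on either strand as GAAA, any 2 bases and GAAA again, was in 6 of them: Irgm1, Irgm2, Igtp, Gbp2, Gbp3 and Gbp7. The same letters occurred in 3.44% of all 32851 windows. The GAS letters, searched as TTC, any 3 bases and GAA, which read alike on both strands, were in the windows of Igtp, Irgm2 and Gbp7 and in 8.3% of all windows. The 120 bases before the start are printed 5′ to 3′ on the strand of the gene for Igtp (chr11:58199436-58199555), Irgm2 (chr11:58214857-58214976), Irgm1 (chr11:48871421-48871540, minus strand), Ifi47 (chr11:49076467-49076586), Gbp2 (chr3:142620543-142620662) and Gbp7 (chr3:142530216-142530335). Capitals mark every match to either motif. Distances are from the RefSeq start, which for Irgm1, Irgm2, Gbp2 and the Gbp3 window with matches lies inside the GENCODE span given above. The printed bases of Irgm1, Irgm2 and Gbp2 therefore fall wholly or partly within that span.
Igtp: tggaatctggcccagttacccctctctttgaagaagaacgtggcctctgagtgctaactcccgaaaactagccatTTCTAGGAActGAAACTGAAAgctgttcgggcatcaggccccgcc
Irgm2: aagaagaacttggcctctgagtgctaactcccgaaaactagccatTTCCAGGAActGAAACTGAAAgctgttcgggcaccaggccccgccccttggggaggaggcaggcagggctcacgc
Irgm1: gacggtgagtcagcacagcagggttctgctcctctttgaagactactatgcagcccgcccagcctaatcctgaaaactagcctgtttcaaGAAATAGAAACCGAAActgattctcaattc
Ifi47: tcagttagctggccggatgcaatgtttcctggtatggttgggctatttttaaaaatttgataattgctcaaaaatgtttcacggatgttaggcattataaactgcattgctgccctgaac
Gbp2: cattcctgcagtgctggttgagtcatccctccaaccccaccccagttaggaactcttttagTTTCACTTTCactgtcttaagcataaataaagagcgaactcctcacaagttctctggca
Gbp7: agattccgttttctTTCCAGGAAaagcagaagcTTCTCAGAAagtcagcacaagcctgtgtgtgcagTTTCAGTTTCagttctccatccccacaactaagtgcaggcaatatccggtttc

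Igtp and Irgm2 carry the same arrangement, a GAS match followed after 2 bases by an ISRE match, which starts 34 bases before the start in Igtp and 64 in Irgm2. Over the best local alignment of their windows, 244 of 270 positions (90.4%) were identical. In Irgm1 a pair of overlapping ISRE matches begins 30 and 24 bases before the start, and in Gbp3, in the first of its 2 windows, 45 and 39 bases before it. Gbp2 and Gbp7 hold their ISRE match on the other strand. The window of Ifi47 holds neither motif, and Gbp9 had no window in the table used. A match is a run of letters and was not tested as a binding site.

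**Figure D1:**
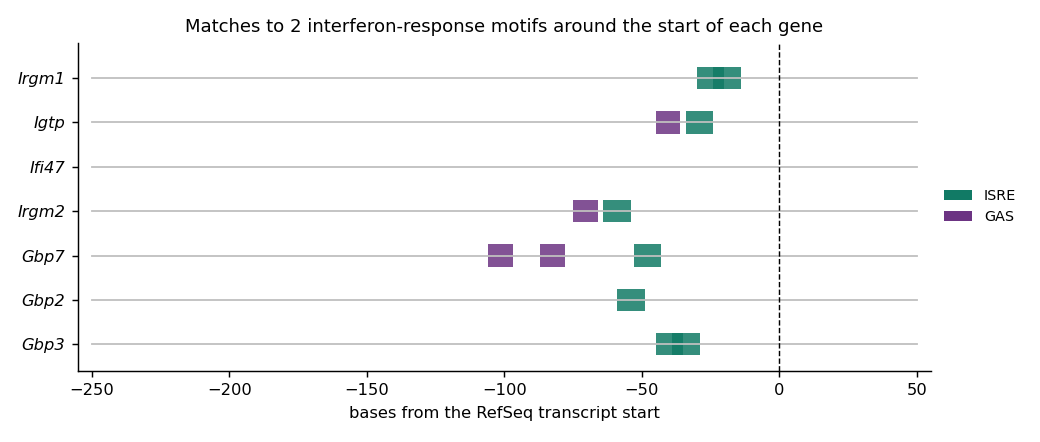
Positions of ISRE (green) and GAS (purple) matches in the RefSeq windows of 7 genes, in bases from the transcript start (dashed line), with each gene on a row. Matches lie within 106 bases before the start in the 6 genes that have one, and Ifi47 has none.

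With midkine, 4 of the 8 GTPase genes fell and none rose; 0 had a positive change at an unadjusted p under 0.05 in limma, and edgeR and DESeq2 also called 0 higher. Irgm1, Igtp, Ifi47 and Gbp9 were lower in all 3 midkine libraries than in any control library, by 1.94-fold to 2.50-fold. Gbp2, Gbp3, Gbp7 and Irgm2 did not pass the test. Values are read counts scaled between libraries by the authors, and genes were tested with limma on log2(value + 1), with p-values adjusted by the Benjamini-Hochberg method over 11844 genes and a call at an adjusted p under 0.05. Among all genes tested 21.8% were called lower and 42.7% called in either direction, so the 4 calls among 8 genes are near the share of genes called at all and above the share called lower. The groups did not overlap for 4 of the 8, against 51.3% of all genes in either direction and 26.2% with midkine lower. The median log2 fold change of the 8 genes was -0.74, and that of all genes tested was -0.01. A fall of at least 2-fold was called for 3 of the 8 genes (Gbp9, Irgm1 and Ifi47), against 3.84% of all genes. Irgm1 (log2 fold change -1.05) and Ifi47 (-1.01) only just passed that line. In fits that left out a library their falls came to as little as -0.93 and -0.94, less than 2-fold.

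Irgm1, a regulator needed in mice for resistance to mycobacteria, had 56.3, 55.9 and 59.5 normalised read counts in the midkine libraries, against 144, 96.1 and 125 in the control libraries. The midkine values were close together and the control values spread widely, with the lowest control well above the highest midkine library. Irgm1 averaged 57.3 ± 1.98 with midkine and 122 ± 23.9 in control cultures (mean ± SD, n = 3 each), a log2 fold change of -1.05 (SE 0.16, limma adjusted p = 7.35e-06).

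Igtp, the regulator also known as Irgm3, which mice need to resist the parasite Toxoplasma gondii, had 37.2, 40.3 and 42.4 normalised read counts with midkine and 101, 67.2 and 70.9 in control cultures. Control replicate 1 stood above the other controls, and the groups did not overlap. The log2 fold change was -0.96 (SE 0.19, limma adjusted p = 0.000176), and without control replicate 1 it was -0.78.

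Irgm2, the third regulator and the neighbour that resembles Igtp before its start, had 13.5, 15.6 and 19.2 normalised read counts with midkine and 33.1, 18.7 and 20.8 in control cultures. Midkine replicate 3 lay above control replicate 2, so the groups overlapped. The log2 fold change of -0.53 was not called (95% interval -1.14 to 0.08, limma adjusted p = 0.153), and it was -0.29 without control replicate 1. The interval does not exclude a fall as large as that of Igtp. These values rest on 48 reads over the midkine and 75 over the control libraries.

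Ifi47, also called Irgd and an effector of the family, had 50.7, 52.2 and 48.4 normalised read counts with midkine and 113, 93.3 and 102 in control cultures. Its midkine libraries differed by little and all lay below every control. The log2 fold change was -1.01 (SE 0.16, limma adjusted p = 1.02e-05). Of the called genes with a start window, Irgm1 and Igtp hold an ISRE match and Ifi47 none; Irgm2, Gbp2, Gbp3 and Gbp7, which were not called, each hold one or more. Whether the motifs bear on the falls was not tested.

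**Figure D2:**
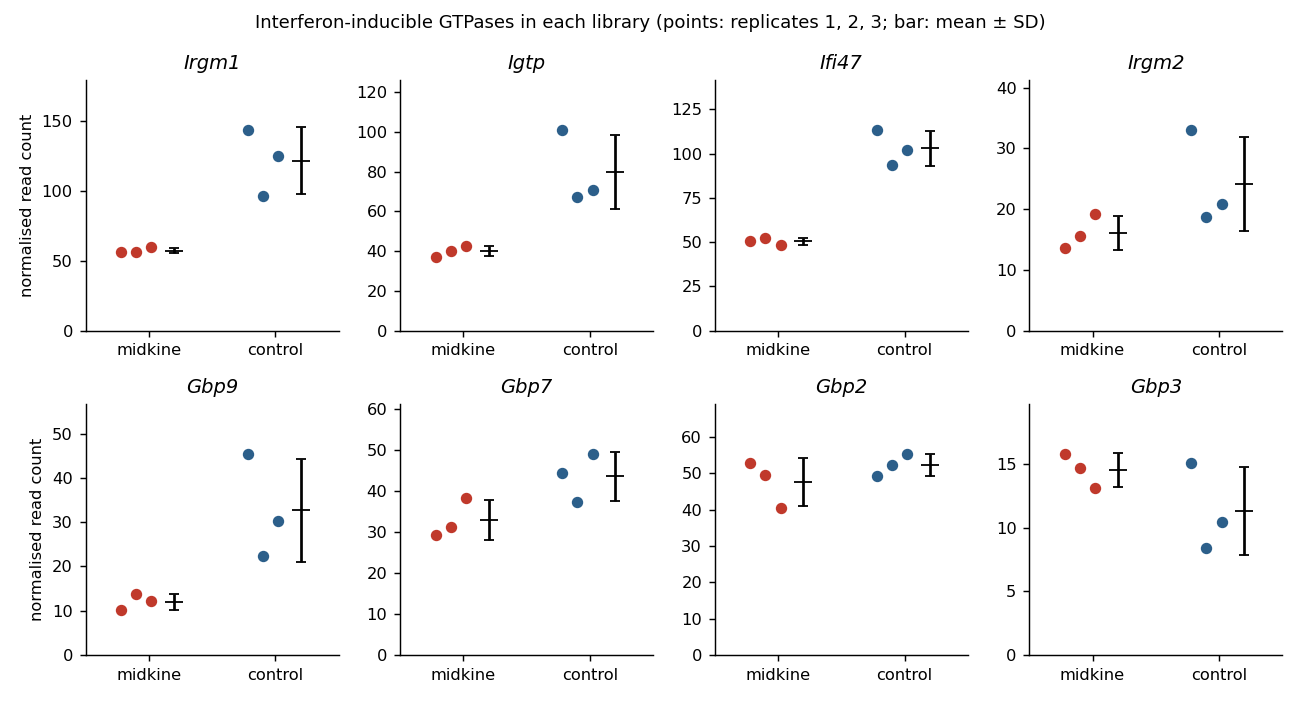
Normalised read counts of the 8 GTPase genes in 3 midkine libraries (red) and 3 control libraries (blue), with the mean and SD as black bars; each panel has its own linear axis from 0. The groups are apart for Irgm1, Igtp, Ifi47 and Gbp9 and overlap for Irgm2, Gbp7, Gbp2 and Gbp3.

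Among the guanylate-binding protein genes Gbp9 fell and the 3 neighbours on chromosome 3 were not called. Gbp9 had 10.1, 13.7 and 12.1 normalised read counts with midkine, against 45.3, 22.4 and 30.2 in control cultures. The control libraries differed 2-fold among themselves, and the lowest was still above every midkine library. Its log2 fold change was -1.32 (SE 0.30, limma adjusted p = 0.000824), from 36 reads with midkine and 101 in control cultures, and was -1.07 without control replicate 1 and -1.56 without control replicate 2.

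Gbp7, which in mouse macrophages helps to assemble the oxidase that makes antimicrobial oxidants, had 29.3, 31.2 and 38.3 normalised read counts with midkine and 44.4, 37.3 and 49.0 in control cultures. Only midkine replicate 3 and control replicate 2 crossed. Its log2 fold change was -0.39 (95% interval -0.83 to 0.04, limma adjusted p = 0.140). Gbp2, which in mice coats the vacuole of Toxoplasma, had 53.0, 49.5 and 40.4 normalised read counts with midkine and 49.1, 52.2 and 55.2 in control cultures. The groups were interleaved, and the log2 fold change of -0.14 had a 95% interval of -0.52 to 0.25 (limma adjusted p = 0.584), which excludes a fall of 2-fold. Gbp3 had 15.8, 14.7 and 13.1 normalised read counts with midkine and 15.1, 8.40 and 10.4 in control cultures. It is the member with the fewest control reads, 35 over the group, and its log2 fold change of 0.37 had an interval of -0.34 to 1.08 (limma adjusted p = 0.416); it was 0.58 without control replicate 1 and 0.19 without control replicate 2.

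Ratios between genes of one library do not depend on how libraries were scaled. The ratio of Irgm1 to Gbp2 was 1.06, 1.13 and 1.48 in midkine libraries, against 2.92, 1.84 and 2.26 in control libraries. All 3 midkine ratios lay below all 3 control ratios. The pair joins a called and an uncalled gene, so its separation restates the calls and adds no support to them. Groups did not overlap for 15 of 16 such pairs, and for 17 of all 28 pairs. On the log2(value + 1) scale the mean ratio of Gbp2 to Irgm1 was -0.27 with midkine and -1.19 in control cultures, a difference of 0.92. For Irgm1 to Igtp the difference was -0.10 and for Irgm1 to Ifi47 -0.04, with groups that overlapped. For Irgm2 to Igtp, the neighbours, the difference was 0.43, with groups that did not overlap. Over the 28 pairs of the 8 genes the smallest p of a two-sided exact permutation test was 0.1 (adjusted over the pairs 0.165), and 3 against 3 libraries cannot give a smaller one.

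The summed value of the 4 immunity-related GTPases was 158, 164 and 169 normalised read counts with midkine, against 391, 275 and 319 in control libraries. The summed value of the 4 guanylate-binding protein genes was 108, 109 and 104 with midkine and 154, 120 and 145 in control libraries. Both sums were lower in every midkine library than in any control library. Of the 4 guanylate-binding protein genes only Gbp9 was called lower, so their sum does not show a fall shared by all 4.

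**Figure D3:**
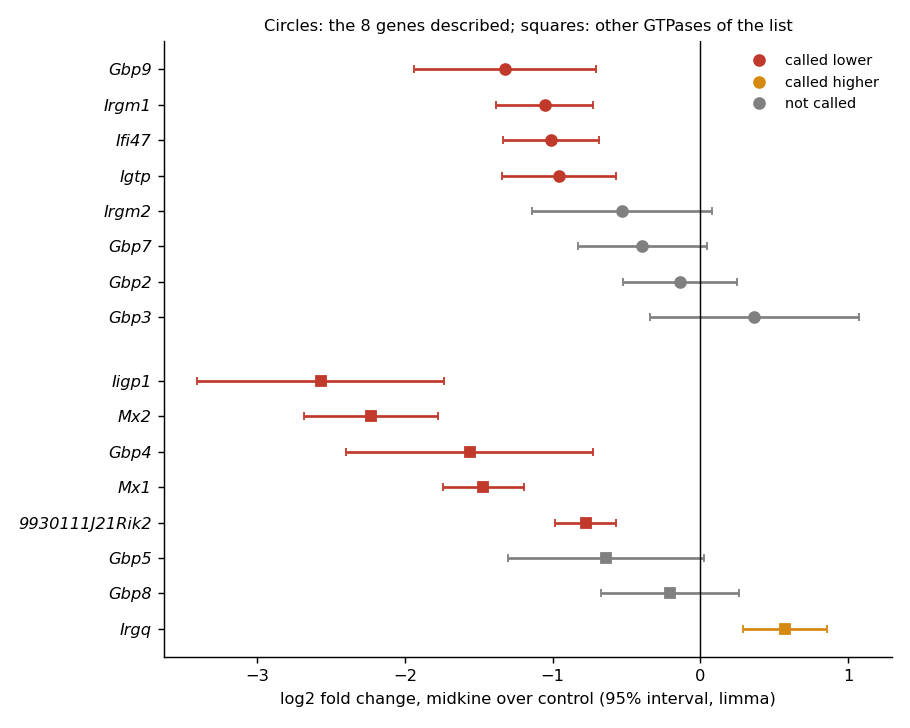
Log2 fold changes of midkine over control with 95% intervals from limma, for the 8 GTPase genes (circles) and for the 8 other GTPase genes tested (squares). Intervals of Irgm2, Gbp7, Gbp2 and Gbp3 include 0, and Iigp1 and Mx2 lie farthest to the left.

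Other GTPase genes of the interferon-inducible families were set beside the 8. Of 19 genes listed, 14 were analysed and 8 reached the minimum for testing, a mean value of 10: 5 fell, 1 rose and 2 were not called, at a median log2 fold change of -1.12. Iigp1, the effector also known as Irga6, had 2.25, 2.75 and 5.04 normalised read counts with midkine and 31.2, 23.3 and 18.8 in control cultures. The highest midkine library was far below the lowest control, and the log2 fold change was -2.57 (SE 0.41, limma adjusted p = 1.22e-05), from 10 and 76 reads. The dynamin-like GTPase gene Mx2 had a log2 fold change of -2.23 and Mx1 of -1.47. Gbp4, which shares exonic bases with Gbp9, fell (-1.56), while Gbp8, which also shares them, was not called at -0.21 (95% interval -0.67 to 0.26). Gbp5, which promotes inflammasome assembly in mice, had 10.1, 11.9 and 18.2 normalised read counts with midkine and 25.5, 24.3 and 14.6 in control cultures. Only control replicate 3 fell among the midkine values, and the log2 fold change of -0.64 was not called (limma adjusted p = 0.114), though it was called at -0.88 without control replicate 3.

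Irgq is listed as a family member by sequence, and whether interferon induces it was not examined here. It ran against the others at 137, 134 and 127 normalised read counts with midkine and 80.3, 84.9 and 103 in control cultures (log2 fold change 0.57, limma adjusted p = 0.00157). With scaling to total reads the log2 fold change of Irgq was 0.32 and no longer called. 9930111J21Rik2, listed with the family under an identifier, fell with a log2 fold change of -0.78. Below the minimum, F830016B08Rik had 1 read with midkine and 19 in control cultures, Gm4951 had 9 and 36, and 9930111J21Rik1, which shares 41 of its last 500 exonic bases with Psme2b, had 6 and 30. Gbp6 (6 and 10 reads), Tgtp2 (7 and 16) and Gvin1 (2 and 8) overlapped between the groups.

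Genes of the interferon signalling chain moved in both directions, with Stat2 and Irf9 lower and the receptor chains Ifngr2 and Ifnar2 higher. No interferon gene of the ligand list was analysed here. Il12b, a subunit of cytokines that lead to interferon-gamma release, rose by 2.28 on the log2 scale. The rest of the list did not follow it as a whole. Il12a had 9 reads with midkine and 31 in control cultures and Il27 had 4 and 2, both below the minimum for testing. Il18 was not called at -0.26. Of 10 receptor, kinase and STAT genes tested, 2 rose, 3 fell and 5 were not called (median 0.12). Ifngr2, a chain of the interferon-gamma receptor, had 332, 343 and 349 normalised read counts with midkine and 245, 228 and 224 in control cultures, and rose by 0.56 (limma adjusted p = 4.97e-05). Ifngr1, the other chain, was not called at 0.13, and Ifnar2 rose by 0.28, or by 0.02 and uncalled with scaling to total reads. Stat2 had 223, 246 and 249 normalised read counts with midkine, against 465, 318 and 349 in control cultures. The groups did not overlap, and control replicate 1 was the highest, as it was for Irgm1, Igtp and Ifi47. The log2 fold change of Stat2 was -0.64 (limma adjusted p = 8.47e-05), and that of Irf9 was -0.79 (limma adjusted p = 1.78e-08). Irf1 was not called (0.05, 95% interval -0.16 to 0.27). Irf1, Ifngr1, Il12a, Il18 and Il27 were named after their values were seen.

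Of 8 interferon-regulated transcription factors tested, 5 fell and none rose (median -0.45); Irf8 had a log2 fold change of -0.73, Irf7 of -3.11 and Nlrc5 of -0.67. Nlrc5 lost its call without control replicate 1 (-0.49) and without midkine replicate 2 (-0.55). Among 7 negative regulators 1 rose and 3 fell. Socs3, an inhibitor of JAK kinases, rose by 1.40, and Usp18, which restrains type I interferon signalling, fell by 1.50. Pias1 (-0.27) and Ptpn6 (-0.20) were the others. Pias1 lost its call without control replicate 3, midkine replicate 2 or midkine replicate 3, and Ptpn6 kept it only without midkine replicate 1 among the 6 fits that left out a library.

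**Figure D4:**
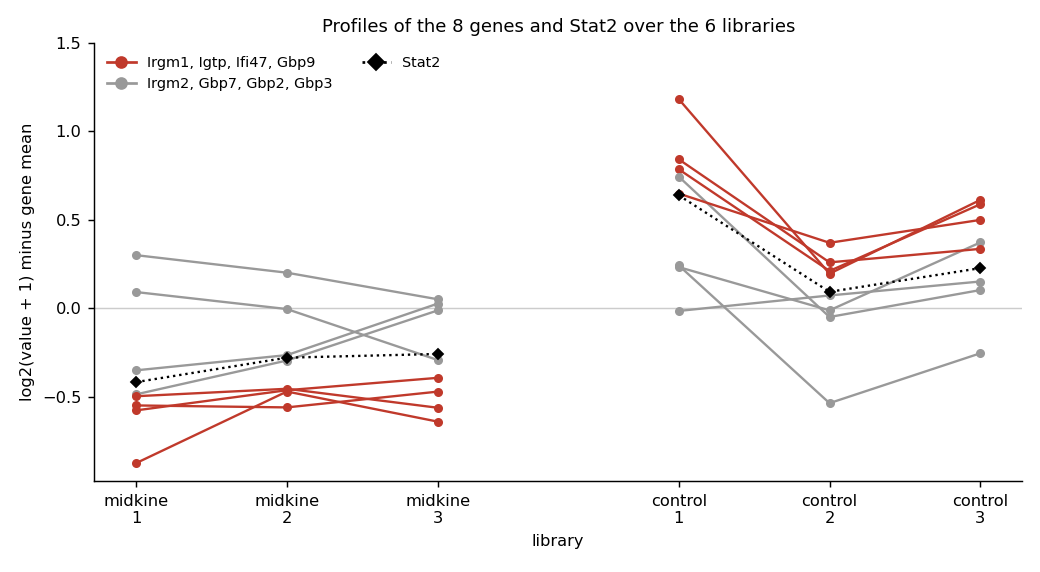
Log2(value + 1) minus the mean of the gene in each of 6 libraries, for the 4 GTPase genes that fell (red), the other 4 (grey) and Stat2 (black); lines only join points of one gene and the order of replicates has no meaning. Red and black points are below 0 in every midkine library and above 0 in every control library.

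Over the 6 libraries, the mean profile of the 8 GTPase genes was closest to that of Stat2, with a root mean square difference of 0.05 on the log2 scale among the 11844 genes tested. Tfdp1 (0.06), Sh3bp1 (0.06), Commd2 (0.07) and Srsf1 (0.07) came next. With 6 libraries in 2 groups, genes that differ between the groups by a like amount come out as alike. Among the 8 themselves, Irgm1 and Ifi47 were each other's closest (0.11), Igtp was closest to Irgm1 (0.12), and Gbp3 stood farthest from any other (0.37, to Gbp2).

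Targets of both interferon types were among the genes that fell. Of 25 type I targets tested, 21 fell, 1 rose and 3 were not called (median -1.21). Rtp4 averaged 17.9 ± 4.73 normalised read counts with midkine and 149.8 ± 40.6 in control cultures (SD, n = 3 each). It fell, as did Slfn5 (-1.23), Trim30a (-1.21) and Bst2 (-1.08), while Ifi44 rose by 1.31. Of 12 interferon-gamma targets, 6 fell, 1 rose and 5 were not called (median -0.26). Cxcl9, a chemokine that draws T cells, fell with 11.3, 5.50 and 10.1 normalised read counts under midkine, against 48.2, 36.4 and 29.2 in control cultures (log2 fold change -1.99, limma adjusted p = 1.22e-05). Psmb10 (-0.46) and Aif1 (-0.34) fell by less, and Cd274, which encodes PD-L1, rose by 2.59. The lists differ in size and genes, and the difference between them was not tested.

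Genes that work with these GTPases moved in both directions. Of 12 autophagy conjugation genes, several of which direct the GTPases to vacuoles in mice, 2 rose, 2 fell and 8 were not called (median 0.01). Gabarapl1 had 410, 462 and 421 normalised read counts with midkine and 154, 224 and 190 in control cultures, a rise of 1.20, and Atg7 rose by 0.54, or by 0.28 and uncalled with scaling to total reads. Atg3 (-0.48) and Gabarapl2 (-0.26) fell; Gabarapl2 kept its call only without control replicate 2 among the 6 fits that left out a library. Of 9 ubiquitin and adaptor genes of coated vacuoles 3 rose, among them Optn (1.73) and Sqstm1 (0.87), and 3 fell, among them Ube2n (-0.62) and Trim21 (-0.80). Trim21 was not called without control replicate 1 or without control replicate 3. Of 7 genes linked to prenylation, the lipid addition that anchors Gbp2, 4 fell and none rose: Zmpste24 (-0.41), Fnta (-0.36), Rce1 (-0.50) and Arhgdia (-0.20). Not all 7 encode enzymes that add the lipid. Pggt1b, which encodes part of such an enzyme and was named after its value was seen, was not called (-0.02). Fnta lost its call without control replicate 2. Rce1, whose groups overlapped, kept it only without control replicate 2 or midkine replicate 2, and Arhgdia only without midkine replicate 2. Of 9 genes of the caspase-11 inflammasome, on which guanylate-binding proteins act, 2 rose (Il1b by 2.32 and Casp4, which encodes caspase-11, by 0.72, or by 0.47 and uncalled with scaling to total reads) and Nek7 fell (-0.28, uncalled without control replicate 1, control replicate 3 or midkine replicate 2).

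**Figure D5:**
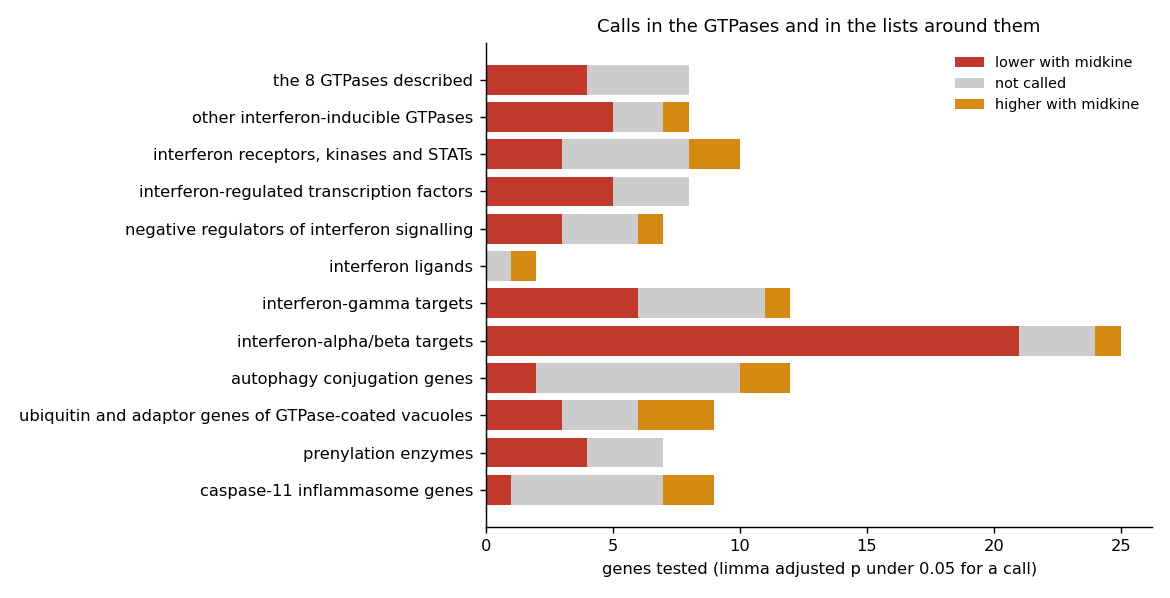
Number of genes called lower (red), not called (grey) and called higher (orange) with midkine among those tested, for the 8 GTPase genes and for 11 lists. The type I interferon targets hold 21 of 25 genes called lower and the 8 GTPase genes 4 of 8.

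Cell type markers and library measures moved with midkine too. The summed value of 13 plasmacytoid dendritic cell markers was 2092 to 2219 normalised read counts with midkine, against 6970 to 7271 in control libraries, and 11 of 13 fell. Type 1 conventional dendritic cell markers summed to 36538 to 38652 with midkine and 44688 to 52629 in control libraries, with 10 of 12 lower and 2 higher. Without Id2, the most abundant of them, the sums were 15156 to 17308 with midkine and 28036 to 33171 in control libraries; Id2 itself was called higher at 0.26, and uncalled at 0.01 with scaling to total reads, and also lost its call without control replicate 2 or control replicate 3. Type 2 conventional dendritic cell markers summed to 4542 to 5289 with midkine and 4296 to 4364 in control libraries, with 6 of 10 higher and 2 lower, or 3 higher and 2 lower with scaling to total reads. Without Clec10a, the most abundant of them, the sums overlapped, at 3120 to 3522 with midkine and 3072 to 3352 in control libraries. Monocyte and macrophage markers summed to 13873 to 15174 with midkine and 12092 to 13940 in control libraries, with 5 of 14 higher and 4 lower. With scaling to total reads 2 were higher and 6 lower. Without Lyz2, the most abundant of them, the sums were 7234 to 7688 with midkine, inside the control range of 6383 to 7836. B cell markers summed to 118 to 159 with midkine and 142 to 262 in control libraries, with 2 of 4 tested lower. Stromal markers summed to 36244 to 39173, against 13878 to 17184, with 7 of 8 tested higher and 1 lower. Neutrophil markers summed to 39.4 to 72.1 with midkine and 536 to 662 in control libraries, with 3 of 4 tested lower. Of 13 T and NK cell markers, the cells that release most interferon-gamma, 5 were analysed, summing to 66.6 to 71.0 with midkine and 50.4 to 62.3 in control libraries; of 2 tested, 1 was higher and 1 lower. Tbx21 averaged 42.4 ± 0.873 with midkine and 25.4 ± 3.47 in control cultures (SD, n = 3 each), and without it the other 4 summed to 23.2 to 29.3 with midkine and 27.99 to 37.8 in control libraries. Cd4 was the gene called lower, at -0.80, and kept its call only without control replicate 2 among the fits that left out a library. No erythroid marker reached the minimum for testing, the list summing to 1.13 to 8.25 with midkine and 0.94 to 3.13 in control libraries. Mitochondrial ribosomal RNA took 18.1% to 20.9% of reads with midkine and 9.33% to 9.86% in control libraries. Midkine libraries held 5685055 to 6453768 reads and control libraries 5089338 to 5532055. Irf7 and Bst2 are also in the plasmacytoid list and Irf8 in that of type 1 conventional cells. The part of these measures in the falls of the GTPase genes was not tested, and in bulk cultures fewer cells of a type and less RNA per cell cannot be told apart.

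The share of calls in each direction depended on the scaling of libraries. With the authors' scaling 2481 genes were higher and 2578 lower; with scaling to total reads 1283 were higher and 4817 lower (40.7% of genes called lower), the median of all genes moved to -0.26, and 6 of the 8 GTPase genes were called lower. With total reads less ribosomal RNA the split was 2023 higher and 3178 lower, and 4 of the 8 were lower. The calls added by scaling to total reads were Gbp7 at -0.65 and Irgm2 at -0.78. The median of the 8 was -0.99 under that scaling. The same scaling gave 1 higher and 9 lower among the interferon-gamma targets, 1 and 5 among the autophagy genes, 2 and 5 among the ubiquitin and adaptor genes, and 1 and 4 among the caspase-11 genes.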

How the data were processed

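RNA of 6 cultures was sequenced with a 3' end kit (QuantSeq FWD), per the labels. The authors deposited a signal table of read counts per gene divided by 1 size factor per library. Per the submitters' processing notes, the tools were TopHat2 2.0.10 and Bowtie 1.0.0, HTSeq, DESeq2, SAMtools 0.1.19 and FastQC 0.11.0, and the builds GRCm38 and mm10. Annotation, strand setting and each tool's role were not given in the sources used here. Every value was a whole multiple of the value of 1 read (0.916 to 1.13; 100% within 1e-06), so reads were recovered for count tests. In midkine replicate 3, 1 read was worth 1.00888. No molecular identifiers are named, so read counts cover counting error only.

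Genes with a mean of at least 10 (11844 of 14912) were tested with limma 3.58.1 (R 4.3.3; variance trend) on log2(value + 1), and the test was checked on simulated data. Fold changes on this scale understate those of low genes. With expectations from total reads, every pair of replicates differed by more than counting noise (chi-square per degree of freedom 2.42 to 11.7). Ribosomal RNA, whose share differed between replicates, was included, so these values do not measure the scatter of the genes tested alone. Members and lists were chosen with earlier results of these data known. Named genes were the 8 members, all other listed GTPases, up to 4 called genes per list with the smallest p and those against its majority (with none called, up to 2 of highest mean), and the 5 genes of most similar profile, predicted genes passed over. Cell type markers are given as sums and counts. Alternatives were pseudocounts of 0.5 and 5, no minimum or a minimum of 50, TMM, quantile and total-read scaling, no variance trend, a replicate block, edgeR 4.0.16 and DESeq2 1.42.0 on recovered reads, and leaving out each library. 1 gene of the signalling list is not reported here. Positions are from GENCODE and promoters from RefSeq. Figures used Python 3.11.15 with matplotlib 3.10.9.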

Additional observations from a re-analysis of the deposited data

How the results depend on the processing

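Across 18 alternatives, Irgm1, Igtp and Ifi47 stayed lower and called in all 18, and Gbp9 in the 17 that tested it. Their log2 fold changes ranged from -1.31 to -0.93 for Irgm1, -1.21 to -0.78 for Igtp, -1.27 to -0.94 for Ifi47 and -1.57 to -1.07 for Gbp9. Gbp7 and Irgm2 were called in 1 alternative, scaling to total reads, and Gbp2 and Gbp3 in none. No member changed sign. A minimum mean of 50 left 3 of the 8 members in the test. Genes called lower numbered 4817 and genes called higher 1283 with scaling to total reads. Leaving out each library in turn gave 2136 to 2344 genes lower, 2139 to 2287 higher, and 4 members lower and 0 higher each time. edgeR called 2572 lower and 2585 higher, DESeq2 2021 and 2067. Beside the 8, 17 of 81 named genes tested lost their call in at least 1 alternative. Same-numbered libraries did not deviate together (correlations -0.06 to 0.03). With 3 libraries per group this cannot show whether replicates were paired, and the labels state no pairing. With a replicate block 2641 genes were lower and 2519 higher, and 4 members were lower. No member was called higher in any of the 18 alternatives; in the main test none had a positive change at an unadjusted p under 0.05. Depth limits Gbp3, Irgm2 and Gbp9, with 35 to 101 reads per group of control libraries.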

Other observations

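The control cultures differed among themselves in interferon genes. Among the 3 control libraries, replicate 1 was highest for 6 of the 8 GTPase genes and replicate 2 lowest for 7 of them. Of the 25 type I interferon targets tested, 22 (88.0%) were highest in control replicate 1, and of 8 interferon-regulated transcription factors 7 were. Over all 11844 genes tested the share highest in control replicate 1 was 37.0%, and the share lowest in control replicate 2 was 33.0%. Interferon-gamma targets were highest there in 6 of 12 cases and autophagy conjugation genes in 5 of 12. These genes share libraries and are not independent of one another, so the counts describe 3 cultures and carry no test. The falls of Irgm1, Igtp, Ifi47 and Gbp9 were called without that library too.

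Genes with an ISRE match in their RefSeq window were called lower in 106 of 358 cases (29.6%), against 1907 of 8479 genes without one (22.5%). The median log2 fold change was -0.13 with a match and -0.01 without. For GAS matches the shares were 24.8% of 701 genes and 22.6% of 8136. The differences were not tested.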
